A study of Callithrix jacchus with 5 samples.

Results

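The ZNF genes are a large family that encodes zinc finger proteins, and 219 of the 30811 gene identifiers in a count table of common marmoset (Callithrix jacchus) cells belonged to it here. Members were all identifiers whose symbol starts with ZNF and that had at least 10 counts in any 1 of the 5 libraries. The table held 222 such identifiers, and ZNF366, ZNF804B and ZNF80 fell below the threshold, with at most 4, 2 and 0 counts in a library. The member nearest to the threshold, ZNF683, had 15 counts in ES line 1, 1 in ES line 3 and none in the other libraries. Only 12660 identifiers (41.1%) could be given a symbol, so the family is described through the members that could be named.

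Most ZNF proteins carry C2H2 zinc fingers, small folds held by a zinc ion that read a few bases of DNA each, arranged in tandem. Many also carry a KRAB domain, which binds the corepressor TRIM28 and through it recruits the H3K9 methyltransferase SETDB1, and these proteins are known for silencing retroelements and holding imprints in early embryos and pluripotent cells. Others have no KRAB domain and act as activators, developmental regulators, RNA-binding proteins or parts of the spindle, and KRAB genes often lie in tandem clusters that grew by duplication.

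The study compared 3 kinds of cultured cell by RNA sequencing of total RNA. There was 1 library of fibroblasts (line E01F, P number 1), 1 library from each of 3 embryonic stem (ES) cell lines (line 1, No40, P number 63; line 2, DSY127, P number 17; line 3, No20, P number 45), and 1 library made from induced pluripotent stem (iPS) cells, which were derived from fibroblasts by RNA delivery per the series title. The labels name no allele, treatment, age or tissue of origin, and do not say whether the iPS cells came from the fibroblasts sequenced here. Only the ES cells have replicates, each a different line, so every test rests on the spread between these 3 lines and assumes that the lone fibroblast and iPS libraries vary like an ES line.

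Total counts were 58601185 in the fibroblast library, 34111715 to 46523012 in the ES lines and 5746449 in the iPS library, the shallowest. Levels are in CPM, each library's counts brought to 1 common total with TMM factors, and 3 counts equalled 0.063 CPM in fibroblasts, 0.061 to 0.0834 CPM in the ES lines, with 0.507 CPM in iPS cells. The labels held against defining markers. All 9 pluripotency markers measured were lower in fibroblasts by the test used below, with a summed level of 26.8 CPM against 3309 to 6943 CPM in the ES lines, with 5310 CPM in iPS cells. Of 12 fibroblast markers 11 were higher in fibroblasts, and their summed level was 81885 CPM there, 1617 to 2781 CPM in the ES lines, with 11374 CPM in iPS cells. Of these 12 markers, COL1A2 at 3447 CPM and PRRX1 at 389 CPM in iPS cells were above the ES lines by the same test. PRRX1 was lower in fibroblasts than in iPS cells, at 174 CPM. The log2 fold change of iPS cells from the ES lines was above 0 for 7 of the 12 and below 0 for 5, among them DCN, PDGFRA and VIM. The 3 trophoblast or amnion markers summed to 292 CPM in iPS cells, mostly TFAP2A at 235 CPM, against 7.5 to 66.97 CPM in the ES lines, and CDX2 had no count in iPS cells. The part of such cells in the iPS values below was not tested. Of 5 muscle markers, 4 were higher in fibroblasts, where ACTA2 reached 2733 CPM, and the summed level was 3008 CPM against 23.1 to 73.5 CPM in the ES lines. Of 7 endothelial markers 1 was higher and 4 were lower in fibroblasts (107 CPM summed, against 328 to 482 CPM in the ES lines). Keratinocyte, melanocyte, blood and trophoblast or amnion markers summed to at most 49.5 CPM in fibroblasts. The part of these other markers in the ZNF values was not tested. In bulk RNA, fewer cells of a type and less RNA per cell cannot be told apart.

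The family was expressed broadly and at a similar overall level in all 3 kinds of cell. Of the 219 members, 215 had a count in fibroblasts, 218 or 219 in the ES lines and 214 in the shallow iPS library. Their summed level was 5604 CPM in fibroblasts, 6262, 5051 and 4912 CPM in ES lines 1, 2 and 3, and 6210 CPM in iPS cells. With this TMM scaling the fibroblast library lay inside the range of the ES lines. The median member stood at 15.0 CPM in fibroblasts, 15.5, 14.4 and 11.6 CPM in ES lines 1 to 3 and 14.5 CPM in iPS cells, close to the median of all genes tested (12.7 to 14.3 CPM). As a share of all counts the members took 0.455% in fibroblasts, 0.526% to 0.663% in the ES lines and 0.639% in iPS cells. By this share the fibroblast library lay below every ES line. The share does not use TMM factors, which were 0.813 for fibroblasts and 1.03 to 1.07 for the other libraries.

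Per length, the members spread over a wide range. The mean level over the 5 libraries ran from 0.0408 to 131 CPM per kb of gene model, with a median of 5.06 and quartiles of 2.75 and 9.82. There were 12 members at 20 CPM per kb or more and 18 under 1. ZNF207, a microtubule-binding protein that loads BUB3 at the spindle checkpoint, led the family with 101 CPM per kb in fibroblasts, 121 in the ES lines on average and 190 in iPS cells. ZNF770 followed, with 31.8 CPM per kb in fibroblasts, 54.4 in the ES lines and 56.7 in iPS cells. ZNF281, a partner of OCT4 and NANOG, stood at 38.1, 31.8 and 90.7 CPM per kb in the same order. ZNF532, ZNF512 and ZNF217 came next with means of 30.3, 27.8 and 27.4 CPM per kb. ZNF512 shares exon bases with CCDC121 and SUPT7L on the opposite strand. The strand setting of the counts is not given, so its value may include reads of these genes. Each of these 6 members was detected in every library.

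Between fibroblasts and ES cells most of the family showed no called difference. By edgeR's quasi-likelihood test with Benjamini-Hochberg adjustment over all 17462 genes tested, 14 members were higher and 5 lower in fibroblasts at an adjusted p under 0.05, and 200 were not called. That is 8.68% of members, against 18.1% of all genes tested (8.8% higher and 9.28% lower). The split of calls depended on scaling: 8 higher and 8 lower with upper-quartile factors, and 5 higher and 9 lower with total counts alone. The median log2 fold change was 0.08 for the members and -0.15 for all genes tested, and the median of its absolute value was 0.64 and 0.999. The sign of the members' median also depended on scaling: it was -0.17 with upper-quartile factors and -0.30 with total counts alone, where all genes stood at -0.41 and -0.54. The quartiles of the log2 fold change were -0.58 and 0.69 for members and -1.42 and 0.75 for all genes tested. The quartiles of the members lay closer together, mostly through the lower one.

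The same can be counted without a test. The fibroblast level lay above all 3 ES lines for 93 members (42.5%), below all 3 for 72 (32.9%) and within their range for 54. The corresponding shares of all genes tested were 35.4% above and 39% below. This order turned with other scalings, chosen after the data were seen: 65 members were above and 96 below with upper-quartile factors (28.4% and 46.8% of all genes tested), and 51 above and 107 below with total counts alone (25.2% and 50.4%).

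**Figure D1:**
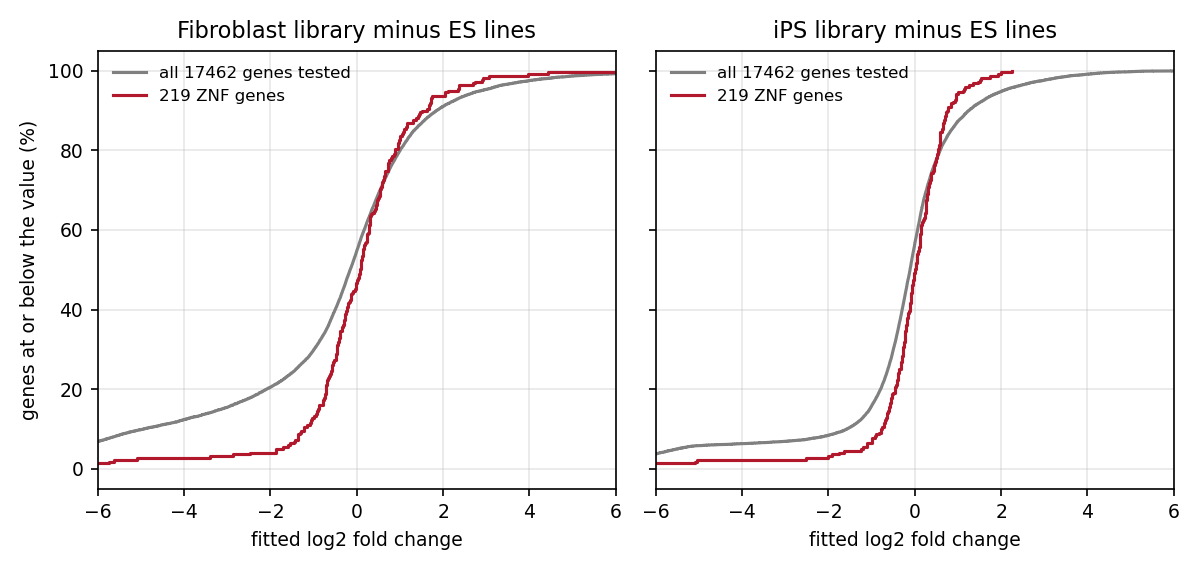
Cumulative share of genes (vertical axis, %) at or below each fitted log2 fold change (horizontal axis, shown from -6 to 6) for the 219 ZNF genes in red and all 17462 genes tested in grey, with fibroblasts minus ES lines on the left and iPS cells minus ES lines on the right. In both panels the red curve is the steeper one, and the grey curve has the longer lower tail.

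The 5 members lower in fibroblasts had at most 1.47 CPM there, and ZNF215 and ZNF648 had no count. ZNF215, a gene reported as imprinted in humans (chromosome 11, 70329427 to 70361048), had 11.6, 8.93 and 5.74 CPM in ES lines 1, 2 and 3, 10.8 CPM in iPS cells and no count in fibroblasts. All 4 pluripotent libraries were thus far above the fibroblast library, which was at least 139-fold lower than the ES mean of 8.77 ± 2.95 CPM (SD, n = 3) when set against 3 counts. The adjusted p was 0.0045 by edgeR's quasi-likelihood test. Its neighbour ZNF214, on the opposite strand of chromosome 11 and chosen after its values were seen, had 2.04 CPM in fibroblasts, 6.72, 7.68 and 7.82 CPM in the ES lines, with 13.7 CPM in iPS cells, and missed the threshold (edgeR adjusted p = 0.085).

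ZNF296 (chromosome 22, 37127235 to 37133252), a factor tied to pluripotency in mouse ES cells, had 0.231 CPM in fibroblasts, 14.5, 19.2 and 3.82 CPM in ES lines 1, 2 and 3, and 12.3 CPM in iPS cells. The groups did not overlap, although ES line 3 was well below the other lines. The log2 fold change was -5.74 ± 1.29 (SE, edgeR adjusted p = 0.027), and the call was lost without ES line 1 and with limma voom. ZNF711, an X-linked gene mutated in intellectual disability, had 1.47 CPM in fibroblasts, 15.1, 6.17 and 11.2 CPM in the ES lines, with 13.02 CPM in iPS cells. Its log2 fold change of -2.88 ± 0.79 (SE) had an edgeR adjusted p of 0.04996, at the edge of the threshold, and it was lost without ES line 1, with RLE factors and with limma voom.

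The other 2 members that fell were weakly expressed everywhere, and they lie outside the rule for named genes. ZNF541, known from meiotic germ cells, had 1 count in fibroblasts (0.0210 CPM), 1.32, 1.70 and 0.595 CPM in the ES lines, with 3.04 CPM in iPS cells. The ES mean was 57.3 times the fibroblast value, with a 95% counting interval of 10.3 to 2263 and an edgeR adjusted p of 0.040. ZNF648 had no count in fibroblasts, 0.731, 0.667 and 0.343 CPM in the ES lines and 0.338 CPM (2 counts) in iPS cells. It was at least 9.21-fold lower in fibroblasts than in the ES lines (edgeR adjusted p = 0.045). Both calls were lost without ES line 1, without ES line 2 and with limma voom.

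Among the 14 members higher in fibroblasts, the largest changes were in genes nearly silent in the pluripotent libraries. ZNF385D, a relative of the p53 cofactor ZNF385A (chromosome 17, 52073900 to 52410542), had 21.03 CPM in fibroblasts, 0.569, 0.0556 and 0.0686 CPM in ES lines 1, 2 and 3 and no count in iPS cells. The fibroblast library stood far above all others, and ES line 1 was the highest of the pluripotent libraries. The log2 fold change was 6.45 ± 1.15 (SE, edgeR adjusted p = 0.013), and 8.37 without ES line 1. ZNF536 (chromosome 22, 24970830 to 25167418), a repressor of neuronal differentiation, had 10.2 CPM in fibroblasts, 0.731, 0.278 and 0.389 CPM in the ES lines, with 0.676 CPM in iPS cells. Its log2 fold change was 4.43 ± 0.74 (SE, edgeR adjusted p = 0.011). ZNF804A, a gene with variants associated with psychiatric disorders and named outside the rule, was low even in fibroblasts at 1.76 CPM. It had 0.0813, 0.111 and 0.137 CPM in the ES lines and no count in iPS cells, and its log2 fold change was 3.97 ± 0.91 (SE, edgeR adjusted p = 0.028). That call was lost without ES line 1, without ES line 2 and with DESeq2.

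ZNF703, a transcriptional corepressor of the NET family known from luminal breast cancer, was expressed in all libraries and was clearly higher in fibroblasts. It had 39.1 CPM there, 4.39, 7.56 and 5.49 CPM in ES lines 1, 2 and 3 and 7.44 CPM in iPS cells. The iPS value lay within the range of the ES lines. The log2 fold change was 2.75 ± 0.49 (SE, edgeR adjusted p = 0.013), and this gene, ZNF215, ZNF385D and ZNF536 were the members that kept their call under every one of the 12 alternatives run.

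A further 4 members had low levels in the pluripotent libraries, between 0.507 and 6.64 CPM. ZNF546 had 10.04 CPM in fibroblasts against 1.38, 0.528 and 1.69 CPM in the ES lines, and ZNF333 had 9.24 CPM against 1.95, 0.834 and 0.846 CPM. ZNF624 had 12.3 CPM in fibroblasts against 2.36, 1.47 and 1.05 CPM, and ZNF862 had 22.1 CPM against 6.64, 2.53 and 3.71 CPM. In each of these genes the fibroblast value was above every ES line. Their log2 fold changes were between 2.36 ± 0.64 (SE, ZNF862, edgeR adjusted p = 0.047) and 3.06 ± 0.76 (SE, ZNF546, edgeR adjusted p = 0.037). In iPS cells they had 0.507, 1.69, 2.70 and 2.87 CPM in the same order of naming (ZNF546, ZNF333, ZNF624, ZNF862). ZNF624 lost its call only without ES line 1 (edgeR adjusted p = 0.051), and ZNF333 lost it without ES line 2 and with total counts alone. ZNF546 lost it without ES line 1, without ES line 2 and with total counts alone.

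ZNF185, an actin-associated LIM domain protein rather than a classic C2H2 factor, had 61.5 CPM in fibroblasts, 20.3, 10.1 and 5.95 CPM in ES lines 1, 2 and 3 and 9.47 CPM in iPS cells (log2 fold change 2.34 ± 0.63 SE, edgeR adjusted p = 0.047). The fold without ES line 1 was larger, 3.01 on the log2 scale, and the call was lost with upper-quartile factors and with total counts alone. ZNF395 had 91.0 CPM in fibroblasts, 24.6, 21.1 and 36.9 CPM in the ES lines, with 15.6 CPM in iPS cells, the lowest of the 5 libraries. ZNF655 had 85.8 CPM in fibroblasts, 24.4, 22.3 and 36.6 CPM in the ES lines, with 33.3 CPM in iPS cells. Their log2 fold changes were 1.72 ± 0.42 and 1.63 ± 0.40 (SE), with edgeR adjusted p values of 0.034 and 0.037.

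ZNF592, a partner of ZMYND8 and ZNF687 in a chromatin complex, had 49.5 CPM in fibroblasts, 8.72, 8.48 and 16.9 CPM in the ES lines, with 6.09 CPM in iPS cells. Its log2 fold change was 2.12 ± 0.52 (SE, edgeR adjusted p = 0.035). Its partner ZNF687, named outside the rule, had 61.6 CPM in fibroblasts, 99.1, 81.4 and 74.6 CPM in the ES lines, with 97.5 CPM in iPS cells, with the fibroblast value below every ES line and no call (edgeR adjusted p = 0.41). ZNFX1, a helicase-like sensor of viral RNA also named outside the rule, had the highest level of the called members, at 166 CPM in fibroblasts, 71.6, 63.4 and 47.0 CPM in the ES lines, with 45.6 CPM in iPS cells (log2 fold change 1.45 ± 0.36 SE, edgeR adjusted p = 0.036). The calls of ZNF395, ZNF592, ZNF655, ZNF862 and ZNFX1 were each lost without ES line 1, without ES line 2, with upper-quartile factors and with total counts alone.

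ZNF800 (chromosome 8, 118722914 to 118744703), a regulator of enteroendocrine differentiation, was the called member whose iPS value was nearest to the fibroblast value. It had 33.3 CPM in fibroblasts, 6.66, 6.48 and 11.2 CPM in ES lines 1, 2 and 3, and 32.3 CPM in iPS cells (95% Poisson interval 27.9 to 37.2 CPM). Both lone libraries were thus above all ES lines. The fibroblast log2 fold change was 2.04 ± 0.48 (SE, edgeR adjusted p = 0.030), lost without ES line 1, without ES line 2 and with total counts alone.

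Of the 14 members higher in fibroblasts, the iPS value was within the range of the ES lines for 6. It was above that range for 2 (ZNF624 and ZNF800) and below it for 6. Of all genes tested, 26.5% had an iPS value above all 3 ES lines and 31.5% below. Some of these values are not clearly outside the range. ZNF546 rests on 3 counts in iPS cells. The 95% Poisson intervals of ZNFX1 (40.4 to 51.4 CPM) and ZNF624 (1.55 to 4.39 CPM) reach into the ES range. Of the 5 members lower in fibroblasts, the iPS value was within the range for 3, above it for ZNF541 and below it for ZNF648. The ZNF648 value rests on 2 counts, and its 95% Poisson interval of 0.0409 to 1.22 CPM covers all its ES values. ZNF385D and ZNF804A had no count in iPS cells, where the level of 3 counts (0.507 CPM) is above or near all their ES values, so a difference from the ES lines was not detectable at this depth.

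**Figure D2:**
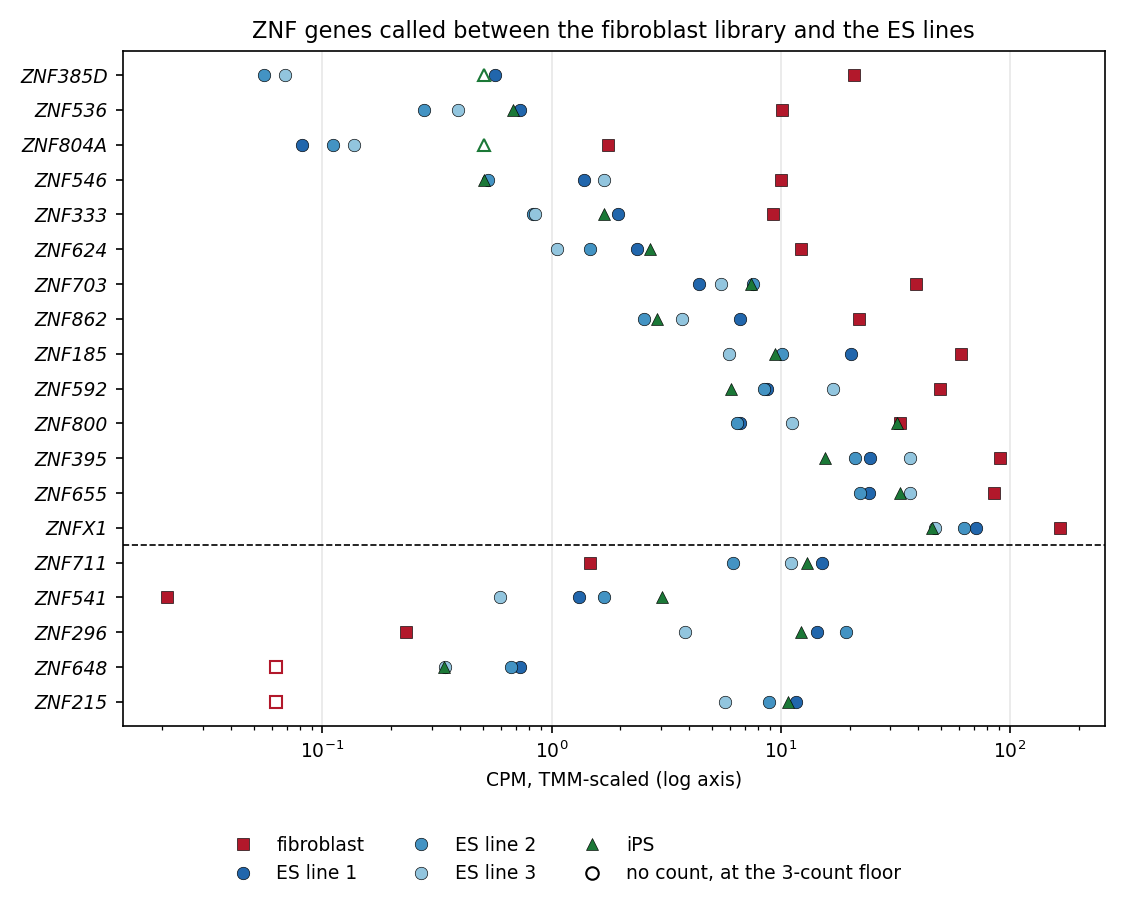
Level of each called ZNF gene (rows) in CPM on a log axis, with the fibroblast library as red squares, the 3 ES lines as blue circles and the iPS library as green triangles; open symbols mark libraries with no count, drawn at the level of 3 counts. The 14 genes above the dashed line were higher and the 5 below it lower in fibroblasts. All 19 fibroblast symbols lie outside the range of the ES lines, as genes picked by this comparison tend to. ZNF800 is the gene whose fibroblast and iPS symbols meet.

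Grouped by role, a chosen list of developmental ZNF genes held 6 of the called members. ZNF800, described above as a regulator of differentiation, is not on it. The lists by role were chosen with earlier results of these data known, so their shares describe the lists and are no independent test of a role. Of 18 tested members on a list of ZNF genes of mesenchymal, neural and epithelial development, 5 were higher in fibroblasts (ZNF385D, ZNF395, ZNF536, ZNF703 and ZNF804A) and ZNF711 was lower, 33.3% in all, against 8.68% of the members and 18.1% of all genes tested, and the median log2 fold change was 0.49. The count was 3 higher and none lower without ES line 1, and 3 higher and 1 lower without ES line 2. Of those that rose, ZNF536 and ZNF804A are best known from nerve cells and ZNF703 from breast tumours rather than from mesenchyme. The EBF partners ZNF521 and ZNF423, known from mesenchymal and fat precursors, had fold changes of opposite sign, and neither was called by the edgeR fit of all 5 libraries. ZNF521 had 57.9 CPM in fibroblasts, 3.39, 5.95 and 17.7 CPM in the ES lines, with 20.1 CPM in iPS cells (log2 fold change 2.68 ± 0.79 SE, edgeR adjusted p = 0.061). It was called higher with DESeq2, with limma voom, without the low-count filter and without ES line 3, where its log2 fold change was 3.74. ZNF423 had 13.001 CPM in fibroblasts, 21.2, 30.3 and 45.7 CPM in the ES lines, with 22.1 CPM in iPS cells (log2 fold change -1.32, edgeR adjusted p = 0.16). ZNF217, a gene amplified in breast cancer, had 145 CPM in fibroblasts, 201, 143 and 121 CPM in the ES lines, with 158 CPM in iPS cells, so both lone libraries lay within the ES range.

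No member of the list of ZNF genes linked to pluripotency passed the test, against 8.68% of the members and 18.1% of all genes tested. A list of 7 genes is too small to tell no call from these shares. ZNF296, called lower in fibroblasts, is not on this list. All 7 matched members were tested and their median log2 fold change was -0.41. ZNF398, a SMAD3 partner in pluripotent cells, came nearest, with 11.7 CPM in fibroblasts, 50.9, 26.4 and 28.8 CPM in ES lines 1, 2 and 3 and 47.8 CPM in iPS cells (log2 fold change -1.60 ± 0.56 SE, edgeR adjusted p = 0.094). DESeq2 called 2 members of this list lower, ZNF398 and ZNF483, and ZNF483 was also called lower without ES line 3. ZNF462, a chromatin regulator of stem cells, had 57.3 CPM in fibroblasts, 144, 89.9 and 83.9 CPM in the ES lines, with 115 CPM in iPS cells (edgeR adjusted p = 0.22). ZNF143, an activator at many promoters including those of small nuclear RNA genes, had 23.8 CPM in fibroblasts, 37.1, 30.4 and 27.1 CPM in the ES lines, with 25.5 CPM in iPS cells. ZNF281 had 134 CPM in fibroblasts, just above its highest ES line at 131 CPM.

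Of 15 tested members on the list of RNA-related and core cell processes, 2 were higher (ZNF592 and ZNFX1) and none lower by edgeR's quasi-likelihood test, 13.3% against 18.1% of all genes tested. The count of higher members was 0 without ES line 1, without ES line 2, with upper-quartile factors and with total counts alone. ZNF346, which binds double-stranded RNA, was called lower under those last 2 scalings, with DESeq2 and without ES line 3. ZNF598, the ubiquitin ligase that marks collided ribosomes, had 73.7 CPM in fibroblasts, 66.5, 82.8 and 53.3 CPM in the ES lines, with 51.6 CPM in iPS cells. ZNF207 had 234 CPM in fibroblasts, 288, 271 and 287 CPM in the ES lines, with 442 CPM in iPS cells. The fibroblast value of ZNF598 thus lay within the ES range, while that of ZNF207 lay below it and its iPS value above it. The list of KRAB genes known for retroelements or imprints had only 4 matched members (ZNF202, ZNF274, ZNF382 and ZNF445), and none was called. ZNF445, which helps to maintain imprints, had 24.7 CPM in fibroblasts, 60.2, 19.97 and 48.1 CPM in ES lines 1, 2 and 3 and 27.2 CPM in iPS cells, a spread among ES lines that spans both lone libraries.

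The corepressors that KRAB ZNF proteins work through, and the methylation and silencing genes tied to them, differed in both directions. Of 22 matched genes of this system, 3 were higher and 4 lower in fibroblasts (31.8%, against 18.1% of all genes tested), and their median log2 fold change was -0.38. The 2 shares are not of like genes, as the median ES level was 142 CPM on this list and 13.8 CPM over all genes tested. This list, too, was chosen with earlier results of these data known. TRIM28, the scaffold that KRAB domains bind, had 513 CPM in fibroblasts, 1804, 2130 and 1133 CPM in ES lines 1, 2 and 3 and 1331 CPM in iPS cells. All pluripotent libraries were above the fibroblast library, with a log2 fold change of -1.72 ± 0.47 (SE, edgeR adjusted p = 0.047) that missed the threshold without ES line 1 or without ES line 2. SETDB1 had 75.9 CPM in fibroblasts, 99.3, 101 and 89.1 CPM in the ES lines, with 95.001 CPM in iPS cells, and was not called (edgeR adjusted p = 0.52).

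The de novo DNA methyltransferases DNMT3B and DNMT3A were lower in fibroblasts. DNMT3B, also one of the pluripotency markers, had 23.0 CPM there, 2985, 1985 and 711 CPM in the ES lines, with 1838 CPM in iPS cells (log2 fold change -6.37 ± 1.04 SE, edgeR adjusted p = 0.0098). DNMT3A had 36.7 CPM in fibroblasts against 341, 242 and 180 CPM (log2 fold change -2.79 ± 0.52 SE, edgeR adjusted p = 0.015). TRIM24, a relative of TRIM28, had 53.6 CPM against 462, 285 and 160 CPM (log2 fold change -2.49 ± 0.67 SE, edgeR adjusted p = 0.045). In the other direction, the remodeller CHD3 had 341 CPM in fibroblasts against 77.9, 72.8 and 76.4 CPM (log2 fold change 2.17 ± 0.29 SE, edgeR adjusted p = 0.0055). The maintenance methyltransferase DNMT1 had 280 CPM in fibroblasts against 28.7, 37.4 and 73.0 CPM in the ES lines, with 11.0 CPM in iPS cells (log2 fold change 2.59 ± 0.50 SE, edgeR adjusted p = 0.017). TASOR, a subunit of the HUSH silencing complex, had 90.8 CPM against 23.6, 27.2 and 39.3 CPM (log2 fold change 1.60 ± 0.40 SE, edgeR adjusted p = 0.038). The calls of DNMT1 and TRIM24 were lost without ES line 1, and that of TASOR without ES line 1, without ES line 2, with upper-quartile factors and with total counts alone.

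Between iPS cells and ES cells no member passed the test in either direction. By edgeR's quasi-likelihood test 19 of all genes tested (0.109%) were called, all higher in iPS cells. At an unadjusted p under 0.05 by edgeR, 8 members were higher and 2 lower, against 971 and 547 of the 17462 genes tested. DESeq2 called 4 members higher and none lower, 1.83% of members against 2.38% of all genes tested. The median log2 fold change was -0.002 for the members and -0.11 for all genes tested, and the median of its absolute value was 0.38 and 0.53. The iPS level was above all 3 ES lines for 62 members (28.3%), below all 3 for 63 (28.8%) and within their range for 94. Of all genes tested 26.5% were above and 31.5% below. This balance, too, moved with scalings chosen after the data were seen. With upper-quartile factors 67 members were above and 50 below (28.1% and 29.7% of all genes tested). With total counts alone 56 were above and 67 below (24.9% and 33.8%).

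The 4 members that DESeq2 called were ZNF281, ZNF385A, ZNF513 and ZNF800. ZNF513 (chromosome 14, 81064720 to 81067602), a factor known from the retina, had 70.7 CPM in iPS cells (95% Poisson interval 64.0 to 77.8 CPM), 25.1, 19.3 and 18.8 CPM in ES lines 1, 2 and 3 and 17.1 CPM in fibroblasts. The iPS library was the high one and the other 4 lay close together. The log2 fold change from the ES lines was 1.75 ± 0.38 (SE), with an adjusted p of 0.18 by edgeR and 0.012 by DESeq2. ZNF281 (chromosome 19, 21980103 to 21983910) had 319 CPM in iPS cells (95% Poisson interval 305 to 334 CPM), 112, 92.2 and 131 CPM in the ES lines, with 134 CPM in fibroblasts. Its log2 fold change was 1.51 ± 0.33 (SE), with an adjusted p of 0.18 by edgeR and 0.027 by DESeq2. ZNF385A, a cofactor of p53, had 97.0 CPM in iPS cells, 19.1, 20.9 and 36.1 CPM in the ES lines, with 22.3 CPM in fibroblasts. Its log2 fold change was 1.94 ± 0.45 (SE), with an adjusted p of 0.21 by edgeR and 0.024 by DESeq2, and 0.033 by edgeR without ES line 3. In these 3 genes the iPS library alone stood above the other 4 libraries, whereas ZNF800 was as high in fibroblasts (iPS log2 fold change 1.99 ± 0.48 SE, adjusted p of 0.24 by edgeR and 0.027 by DESeq2).

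ZNF827 and ZNF384 were next among the higher members. ZNF827, a telomere-associated protein that recruits NuRD, had 78.6 CPM in iPS cells, 38.5, 25.6 and 21.7 CPM in the ES lines, with 56.9 CPM in fibroblasts. ZNF384, a partner in leukaemia gene fusions, had 96.5 CPM in iPS cells, 43.1, 50.7 and 57.7 CPM in the ES lines, with 48.9 CPM in fibroblasts. Their edgeR adjusted p values were 0.35 and 0.52.

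On the low side ZNF485 had no count in iPS cells, 1.75, 1.78 and 1.28 CPM in the ES lines, with 0.840 CPM in fibroblasts, and was at least 3.16-fold lower in iPS cells than in the ES lines (edgeR adjusted p = 0.32). ZNF181 had 10.1 CPM in iPS cells against 24.0, 19.0 and 27.3 CPM in the ES lines, and ZNF579 had 14.0 CPM against 26.5, 27.5 and 30.1 CPM. ZNF410, the activator of CHD4, had 25.7 CPM in iPS cells against 36.7, 49.5 and 46.6 CPM. These genes were below every other library, fibroblasts included. ZNF516, known from brown fat, had 10.1 CPM in iPS cells against 78.0, 21.3 and 23.9 CPM in the ES lines, with ES line 1 well above the other lines. ZNF341, an activator of STAT3 transcription, had 3.04 CPM in iPS cells against 13.6, 9.79 and 5.08 CPM. The edgeR adjusted p values of these last 5 genes were between 0.55 and 0.67.

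**Figure D3:**
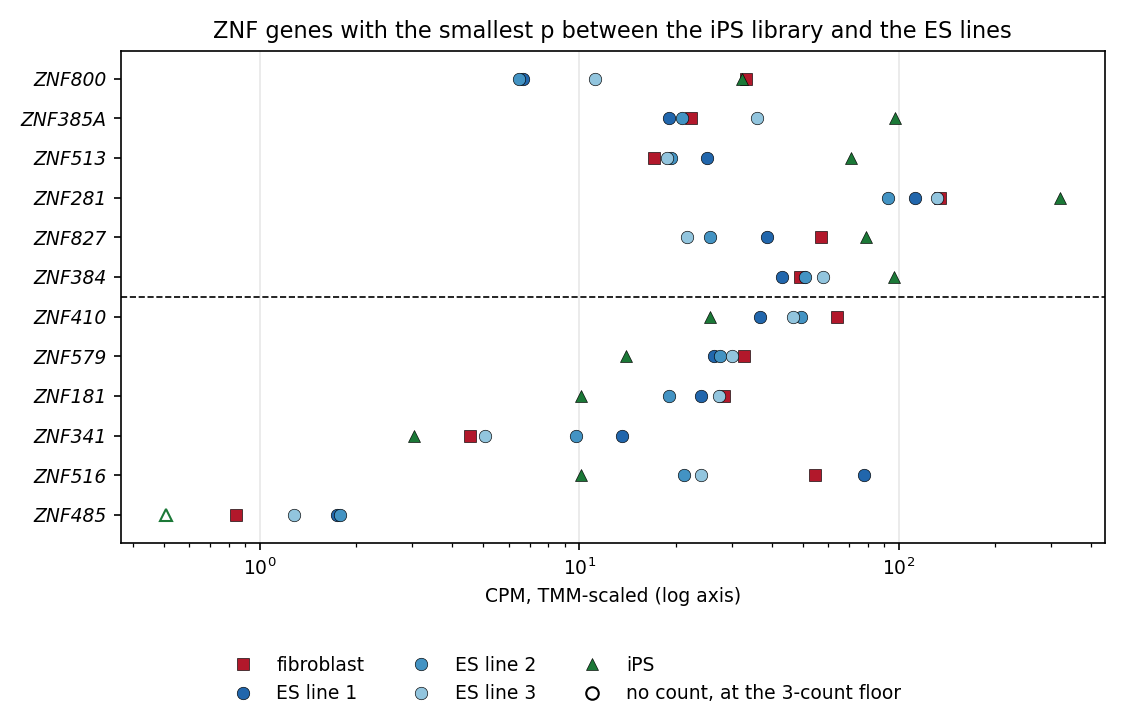
Level of the 6 ZNF genes with the smallest p in each direction between iPS cells and ES lines, in CPM on a log axis, with the iPS library as green triangles, the 3 ES lines as blue circles and the fibroblast library as red squares; the open triangle of ZNF485 marks no count, drawn at the level of 3 counts. Genes above the dashed line had higher and those below it lower iPS levels. In all 12 the iPS symbol is outside the range of the ES lines, as genes picked by their iPS p tend to be. None passed the edgeR test.

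Set directly against fibroblasts, with 1 library each and therefore no test, iPS cells were at least 4-fold higher for 13 members (5.94%) and at least 4-fold lower for 19 (8.68%). Of all genes tested 19.9% were at least 4-fold higher and 12.7% at least 4-fold lower. The median log2 ratio was 0.00 for members and 0.03 for all genes tested. The comparisons of both lone libraries with ES cells share the ES libraries.

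The 3 ES lines also differed among themselves, with ES line 1 most often the highest. The highest and lowest line were at least 2-fold apart for 57 members (26%), against 41.4% of all genes tested, and at least 4-fold apart for 14 (6.39%), against 12.9%. ES line 1, with the highest P number, was the highest of the lines for 122 members (55.7%), against 36% of all genes tested, and ES line 3 was the lowest for 104 (47.5%), against 35.4%. With 1 library per line there is no test of these differences, and line, P number and library cannot be told apart.

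The largest range was in ZNF266, with 2.56, 6.56 and 0.137 CPM in ES lines 1, 2 and 3, 10.3 CPM in fibroblasts and 6.76 CPM in iPS cells. ZNF280A had 0.508, 4.14 and 0.274 CPM in the ES lines, 7.78 CPM in iPS cells and no count in fibroblasts. ZNF177 had 9.28, 18.3 and 1.60 CPM in the ES lines, 3.97 CPM in fibroblasts and 14.4 CPM in iPS cells. In these 3 genes ES line 3 was the lowest and ES line 2 the highest of the lines. ZNF483, a gene of the pluripotency list, had 12.6, 2.78 and 1.30 CPM in the ES lines, 0.525 CPM in fibroblasts and 8.96 CPM in iPS cells. ZNF521, described above, went the other way and was highest in ES line 3.

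On the chromosomes, 73 of the 219 members (33.3%) lay on chromosome 22, and chromosome 12 with 15 members and chromosomes 2 and 5 with 14 each followed. Chromosome 22 held 3 of the members higher and 2 of those lower in fibroblasts, 6.85% of its members, against 15.8% of all 1082 genes tested on it. The following was noticed after the values were seen. Between ZNF699 and ZNF426 (chromosome 22, 8826175 to 9055718) 6 tested identifiers lie side by side, 4 of them ZNF members, and ES line 3 was the lowest line for all 6. It was the lowest line for 47.5% of all members and 35.4% of all genes tested. ZNF699 had 43.8, 13.3 and 12.2 CPM in ES lines 1, 2 and 3, and ZNF426 had 43.5, 34.5 and 24.97 CPM. ES line 3 was 2.35-fold below the mean of the other lines for ZNF699, 8.62-fold for ZNF177, 33.2-fold for ZNF266 and 1.56-fold for ZNF426. The unnamed identifier ENSCJAG00000006154 between ZNF266 and ZNF426 had 43.5, 72.1 and 0.137 CPM in the ES lines, 1.32 CPM in fibroblasts and 87.7 CPM in iPS cells. Its value in ES line 3 rests on 6 counts, as does that of ZNF266.

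A further stretch from ZNF607 to ZNF570 (chromosome 22, 30596310 to 31119613) was less uniform. It held 10 tested identifiers, 6 of them members, and ES line 3 was lowest for 6 of the 10, of which 5 were members. The share over all members was 47.5%, and over all genes tested 35.4%. Both stretches were chosen after their values were seen, so these counts do not test for a regional difference. ZNF527 had 81.7, 57.3 and 17.4 CPM in ES lines 1, 2 and 3, ZNF569 had 14.9, 6.67 and 3.52 CPM, and ZNF571 had 1.40, 1.31 and 0.252 CPM. ZNF570, whose gene model lies inside that of ZNF527 on the other strand, had 28.4, 12.5 and 10.3 CPM. ZNF540 had 0.610, 0.584 and 0.0686 CPM, the last from 3 counts. ES line 3 was not the lowest for ZNF607, with 52.8, 29.4 and 31.8 CPM, nor for 3 of the 4 identifiers without a symbol.

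**Figure D4:**
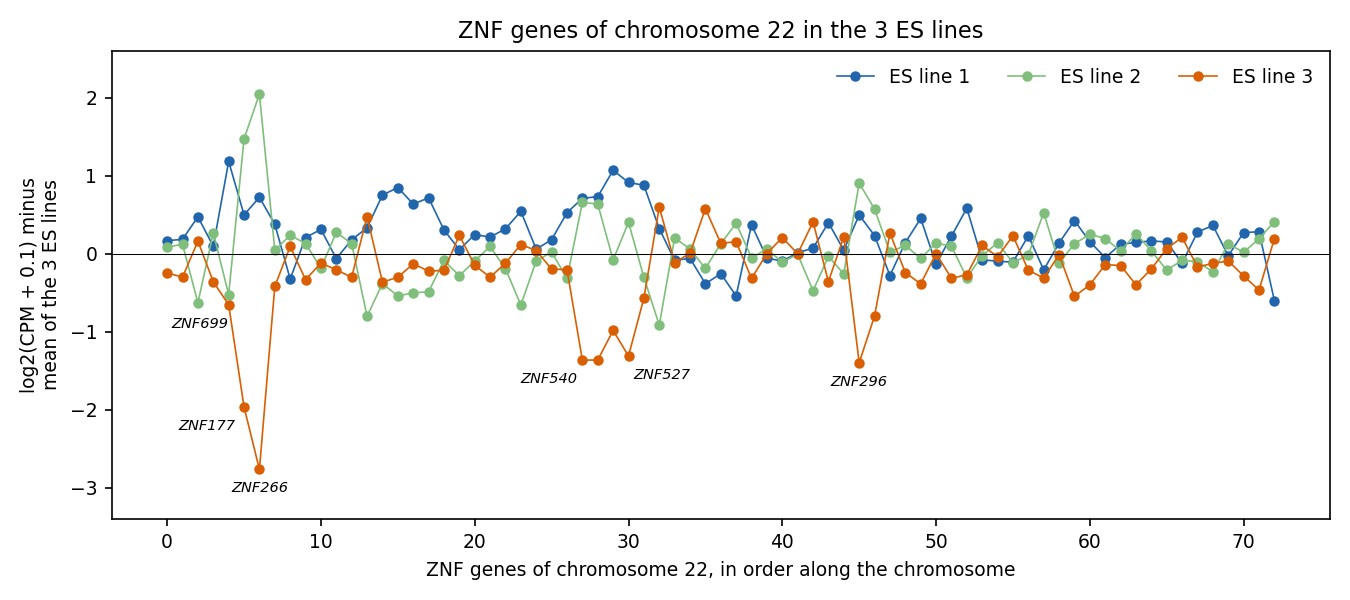
Difference of log2(CPM + 0.1) from the mean of the 3 ES lines (vertical axis) for the ZNF genes of chromosome 22, placed in order along the chromosome (horizontal axis, rank), with 1 coloured line for each ES line. ES line 3 (orange) drops below the others around ZNF177 and ZNF266, between ZNF540 and ZNF527, and at ZNF296, which had 3.82 CPM in that line against 14.5 and 19.2 CPM in the others.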

How the data were processed

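For 5 libraries the authors deposited raw counts of reads for each gene, as whole numbers, in a series table and in single-library files with the same content. The submitters' processing notes list featureCounts 1.5.2, STAR 2.5.3a and Trim Galore 0.4.0. Genome build, strand setting and treatment of shared reads: not given in the sources used here. KRAB genes have close copies, and 15 members share exon bases with another gene (none of the 19 called ones), so reads may be split or shared. Coordinates are those of the files, 1-based.

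Symbols came from a table that pairs Ensembl identifiers with names. In R 4.3.3, edgeR 4.0.16 kept 17462 genes with filterByExpr, among them all 219 members, and scaled with TMM. All 5 libraries entered 1 quasi-likelihood fit (2 residual degrees of freedom, common biological coefficient of variation 0.458), with Benjamini-Hochberg adjustment over all genes and calls under 0.05. Only the spread between 3 ES lines enters the p-values. CPM uses TMM totals, log2 CPM a prior count of 2. SE is the absolute log2 fold change over the root of F. A library without counts is set at 3 counts for a bound. Intervals and bounds cover counting error only. Alternatives were upper-quartile factors, RLE factors, no factors beyond total counts, other filters, DESeq2 1.42.0, limma voom (limma 3.58.1), a robust prior, 2-group fits, and each ES line left out. The steps were also run on simulated counts with planted changes, where every library had the spread fitted here. That run does not test whether the lone libraries vary like an ES line.

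The members, gene lists, tests and rules were chosen with earlier results of these data known. Named members are up to 12 called in each direction that reach 2 CPM in the higher group, the 6 with the smallest iPS p in each direction, the 6 highest per kb, the 5 widest among ES lines with at least 2 CPM in the highest, 11 fixed genes (ZNF469 had no match and was not analysed here) and the called corepressors. ZNF541, ZNF648, ZNF804A, ZNFX1, ZNF214, ZNF346, ZNF683, ZNF687 and the chromosome 22 neighbours were named after their values were seen.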

Additional observations from a re-analysis of the deposited data

How the results depend on the processing

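The 14 members higher in fibroblasts became 8 under upper-quartile scaling and 5 with total counts alone, and were 5 to 19 when 1 ES line was left out. The 5 lower members became 8 under upper-quartile scaling, 9 with total counts alone, 13 with DESeq2 and 1 with limma voom, and were 1 to 8 when 1 ES line was left out. Without ES line 1, 2 or 3, 6, 9 and 27 members were called in all, of which 6, 8 and 19 were among the 19 of the report. The share of members called was below that of all genes under each alternative, for example 2.75% against 10.2% without ES line 1 and 15.1% against 27.3% with DESeq2. The median log2 fold change of members in fibroblasts became -0.30 with total counts alone, and that of all genes moved from -0.15 to -0.41 under upper-quartile scaling and -0.54 with total counts alone, so directions near 0 follow the scaling.

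In iPS cells the count of higher members was 0 under the alternatives, except 4 with DESeq2 and 0 to 1 when 1 ES line was left out, and the count of lower members was 0 in all. Corepressors higher in fibroblasts were 1 to 4 and lower 2 to 6 when 1 ES line was left out, and DESeq2 called 1 lower in iPS cells. For fibroblasts, signs of single members were followed only for the called members and the fixed genes, not for the other uncalled members. Of the uncalled fixed genes, the log2 fold change turned sign for ZNF217 (0.21 without ES line 1) and ZNF281 (-0.12 with total counts alone). The log2 fold change of ZNF598 also turned, to -0.13 under upper-quartile scaling and -0.26 under total counts. In iPS cells that of ZNF217 turned to -0.011 with total counts alone and -0.003 without the low-count filter, and ran from -0.094 (without ES line 3) to 0.25 (without ES line 1) when 1 ES line was left out. The cause of these changes was not tested. Members above all ES lines in fibroblasts fell from 93 to 51 with total counts alone. Counts between ES lines and between iPS cells and fibroblasts, recomputed with RLE factors, upper-quartile factors and total counts after the data were seen, stayed within 1.5 times. A minimum of 50 counts in place of 10 left 212 members, and a minimum of 5 left 219.

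No paired analysis was possible because the fibroblast and iPS groups have 1 library each and the labels give no replicate numbers shared with the ES lines. The iPS library's depth limits what can be said of members under 0.507 CPM there.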
